A study of Mus musculus with 16 samples.

Results

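The collagen genes of the mouse ileum were examined in 16 libraries of total RNA from whole ileal wall. They were found by symbol, as Col followed by a type number, the letter a and a chain number, and were selected on their counts in these libraries, since a gene had to reach 10 counts in at least 4 of the 16 libraries. Of 44 collagen symbols among the 41740 genes listed, 37 met the rule, comprising 10 fibrillar chains, 6 basement membrane chains (Col4a1 to Col4a6) and 21 other chains. The 7 that did not were Col2a1, Col6a6, Col9a1, Col10a1, Col17a1, Col19a1 and Col26a1. Just inside the threshold, Col22a1 and Col9a3 each reached 10 counts in 4 libraries, the lowest count among those 4 being 11 and 12. Just outside it, Col17a1 reached 10 counts in 1 library and Col9a1 in 0, and the lowest of the top 4 counts was 6 in both. All 37 also passed the expression filter of the statistical model, so none was lost before testing, although that filter too reads the counts.

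Male C57BL/6J mice were made diabetic with streptozotocin as neonates and then, from week 4 of life, kept on high-fat food (the STAM model), which held for every group. Control-STAM-nonINS (n = 4) and Control-STAM-INS (n = 6) mice were labelled Vilin-Cre(-); InsR-flox, and ieIRKO-STAM-INS mice (n = 6) Vilin-Cre(+); InsR-flox, so that the insulin receptor gene Insr was floxed in all 3 groups. The INS groups received the long-acting insulin degludec under the skin 2 times a day from 6 weeks of age, the nonINS group received saline, and the ileum was taken at 20 weeks. The first comparison (Control-STAM-INS against Control-STAM-nonINS) asks what insulin treatment changed, and the second (ieIRKO-STAM-INS against Control-STAM-INS) what the loss of the epithelial insulin receptor changed under insulin. The series has no untreated ieIRKO group. The Villin promoter drives Cre in intestinal epithelium, whereas most collagen is made by cells of the wall beneath it.

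Collagens are triple helices of 3 chains, each chain being the product of one gene. Fibrillar collagens (types I, III and V and their relatives) form the cables that give the gut wall tensile strength. Type IV collagen forms the sheet-like network of basement membranes, under the epithelium and around vessels, muscle and nerves. The remaining types form beaded microfilaments (type VI), decorate fibrils (types XII, XIV, XVI and XX), link basement membranes to the matrix (types VII, XV and XVIII), build short-chain networks (type VIII) or span the cell membrane (types XIII, XXIII and XXV). In gut fibrosis, types I and III are the chains most often followed.

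Library totals ran from 13288018 to 22215382 counts, and the 37 collagen genes took 0.0942% to 0.153% of them. Levels are given as counts per 1000000 counts (CPM) after scaling the libraries by the trimmed mean of M-values (TMM). Insr, the gene targeted in the ieIRKO mice, was at 112, 104, 88.3 and 116 CPM in the 4 Control-STAM-nonINS libraries. It ran from 49.9 to 76.1 CPM (median 63.7) in Control-STAM-INS, and the libraries labelled ieIRKO-STAM-INS had 57.5 to 90.4 CPM (median 60.5). In the wall as a whole, loss of Insr was thus not seen between the insulin-treated genotypes (log2 fold change of the ieIRKO-labelled libraries 0.10, SE 0.127, edgeR adjusted p = 0.805), and directions in the second comparison rest on the labels. Several libraries stood apart in cell markers. Control-STAM-nonINS replicate 4 had a summed CPM of 8 endothelial markers of 283, against 114 to 174 in the other 15 libraries. The libraries labelled ieIRKO-STAM-INS replicates 2 and 3 had summed B cell markers of 354 and 217 CPM, against 17.3 to 51.6 elsewhere, and replicate 5 had the lowest summed enterocyte markers, 8368 CPM against 17187 to 32134. Control-STAM-nonINS replicate 3 had summed markers of adipocytes of 437 CPM, against 31.8 to 268 in the other 15. In whole wall RNA, fewer cells of a type and less RNA per cell cannot be told apart.

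The ileal collagen pool was dominated by few genes. Levels between genes were compared as CPM per kb of exon, averaged over all 16 libraries. The exon length merged all annotated exons of a gene, and was 4.38 kb for Col6a1, 8.33 for Col6a2 and 9.82 for Col3a1. The highest was Col6a1, a core chain of type VI beaded filaments, at 25.7 CPM per kb, followed by the 2 major basement membrane chains and the type I and III fibril chains: Col4a1 at 18.6, Col3a1 at 16.3, Col4a2 at 15.9 and Col1a1 at 13.3. Col6a2 (11.3), Col1a2 (8.51), Col18a1 (7.23), Col6a4 (6.63) and Col6a3 (4.50) came next. Of summed CPM, these 10 genes held 81.9%, with a range of 80.1% to 83.3% between libraries. By CPM alone, Col3a1 came first at 160, followed by Col4a1 at 139 and Col6a1 at 113, so the order depends on the exon lengths. Within the fibrillar class, Col3a1, Col1a2 and Col1a1 held 81.3% of the CPM, and Col4a1 and Col4a2 held 95.7% of the basement membrane class. The type V chains, which nucleate type I fibrils, were lower, with Col5a1 at 3.50, Col5a2 at 2.48 and Col5a3 at 1.16 CPM per kb. The other basement membrane chains were lower still, from 0.771 CPM per kb for Col4a5 and 0.428 for Col4a6 to 0.142 for Col4a3 and 0.0915 for Col4a4. The lowest members, Col22a1, Col11a1 and Col25a1, lay between 0.0532 and 0.0567 CPM per kb.

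**Figure D1:**
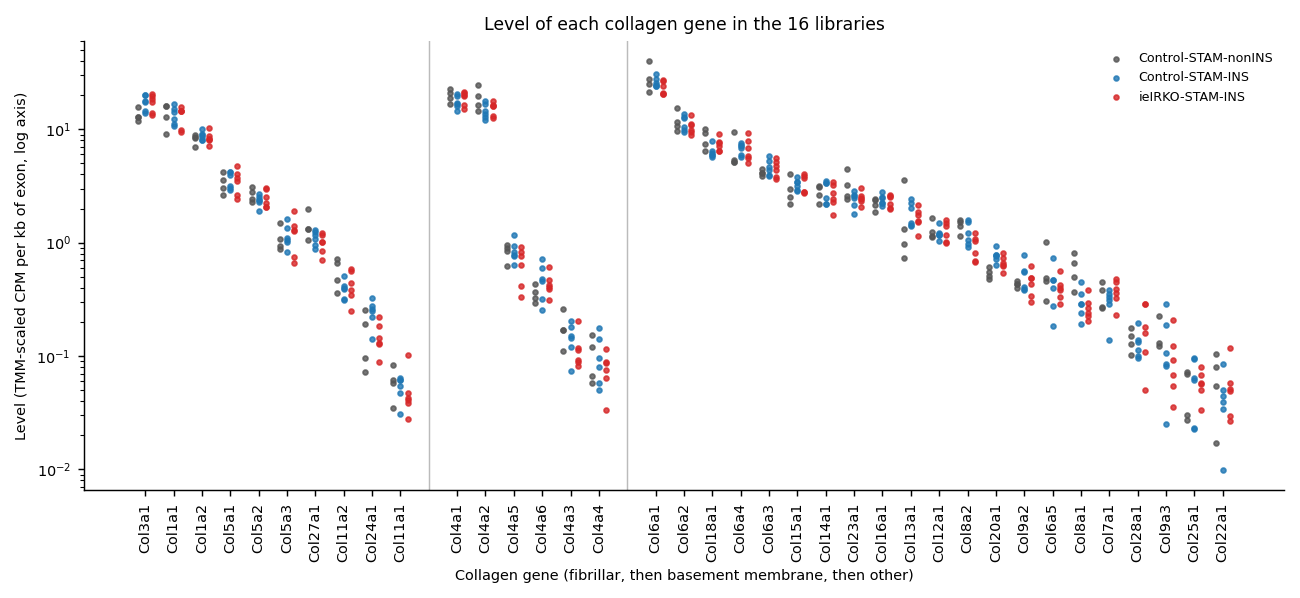
Level of the 37 collagen genes in CPM per kb of exon on a log axis, each point 1 library coloured by group, with fibrillar, basement membrane and other chains separated by lines. The levels run from 25.7 CPM per kb for Col6a1 to 0.0532 for Col22a1, and the untreated and insulin-treated control libraries overlap in every gene but Col20a1 (a value of 0, Col9a3 in Control-STAM-nonINS replicate 1, cannot be drawn).

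Within groups, Col6a1 and Col4a1 ranked first and second in each, while Col3a1 ranked 5 in Control-STAM-nonINS (13.3 CPM per kb) and 3 in Control-STAM-INS and ieIRKO-STAM-INS (17.3 in both), and Col4a2 ranked 3 untreated (18.8) and 4 in both insulin-treated groups (14.5 and 15.4). Neighbours in this order often did not differ beyond their spread. Col4a1, Col3a1 and Col4a2 lay between 15.9 and 18.6 CPM per kb on average, and their values overlapped across libraries. The spread between libraries of a group was smaller for abundant chains, with a median SD of 0.24 on the log2 scale for the 18 members at 10 CPM or more and 0.44 for the 19 below it. Col1a2 was the steadiest member, at an SD of 0.15, and Col1a1, its partner in the type I trimer, varied more at 0.31.

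Insulin-treated and untreated control mice differed in 1 of the 37 collagen genes. Col8a1, a chain of the type VIII short-chain network, fell with insulin to 0.512 of the untreated level (log2 fold change -0.97, SE 0.253, edgeR adjusted p = 0.0206). The main fibril chains Col1a1 and Col1a2 and the type VI chains Col6a1 to Col6a3 had log2 fold changes between -0.12 and 0.16, and none of these passed the test. The lowest p-values after Col8a1 were those of Col20a1 and Col3a1, which were higher, and of Col18a1 and Col4a2, which were lower, and none of these 4 passed the threshold over 15267 genes. Across all genes the same test called 10.5%, and 6.76% were called lower in Control-STAM-INS, while 1 of 37 is 2.70%. At an unadjusted p under 0.05, 7 of the 37 members were found, against 25.4% of all genes. The median log2 fold change was -0.02 over the 37 members and -0.004 over all genes.

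**Figure D2:**
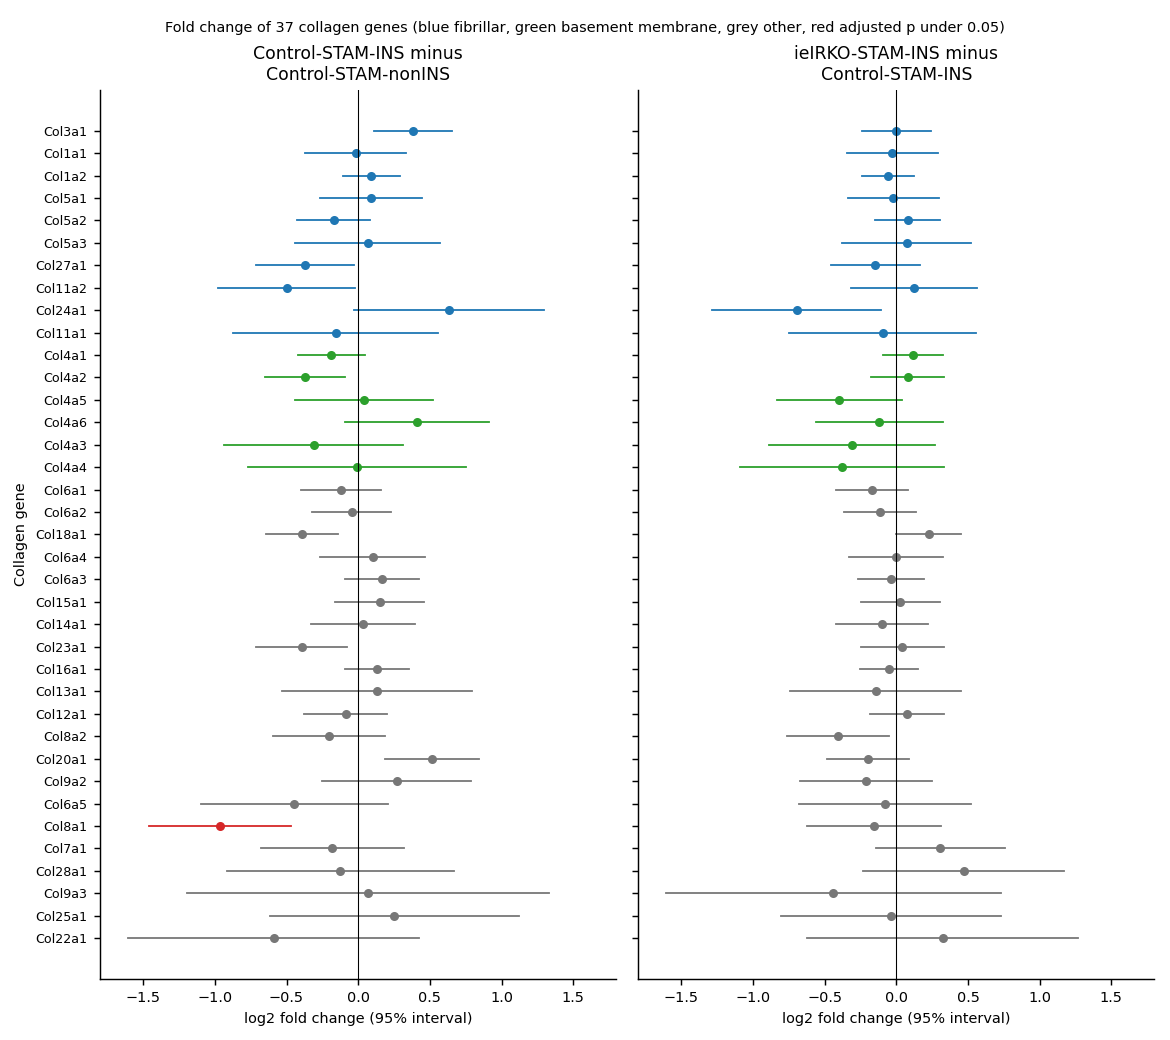
Log2 fold change of each of the 37 collagen genes with its 95% interval, for insulin-treated against untreated control mice (left) and for ieIRKO against control mice under insulin (right), from edgeR. Col8a1 on the left is the one gene past an adjusted p of 0.05, at -0.97, and no gene on the right passes it.

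Col8a1 (ENSMUSG00000068196.5, minus strand, chr16:57624258-57754737 in GRCm38) was at 5.16, 2.90, 6.32 and 3.89 CPM in the Control-STAM-nonINS libraries. It ran from 1.51 to 3.53 CPM (median 2.24) in Control-STAM-INS and from 1.59 to 3.00 CPM (median 1.99) in ieIRKO-STAM-INS. The groups touched at Control-STAM-nonINS replicate 2, and 5 of the 6 Control-STAM-INS libraries lay below all 4 untreated ones. These levels rested on 27 to 113 counts per library. The call was lost without Control-STAM-nonINS replicate 1 (log2 fold change -0.91, edgeR adjusted p = 0.0663) and without replicate 3 (-0.76, adjusted p = 0.0914). Replicate 3 had the highest Col8a1 value and also the highest summed adipocyte markers, of which 5 of 6 had lower values with insulin (median log2 fold change -0.78) and 0 of 6 passed the test, and their part in the Col8a1 result was not tested. Its partner in type VIII collagen, Col8a2, was at 6.32 ± 0.834 (SD, n = 4), 5.46 ± 1.26 (SD, n = 6) and 4.13 ± 0.999 CPM (SD, n = 6) in the same order of groups, a log2 fold change of -0.20 (SE 0.200, edgeR adjusted p = 0.570) with insulin.

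Because Col8a1 was the only member called, the 250 bases before its RefSeq start are shown (chr16:57754738-57754987, minus strand, GRCm38.p6), with the GC box GGGCGG or its reverse complement CCGCCC in capitals:
Col8a1: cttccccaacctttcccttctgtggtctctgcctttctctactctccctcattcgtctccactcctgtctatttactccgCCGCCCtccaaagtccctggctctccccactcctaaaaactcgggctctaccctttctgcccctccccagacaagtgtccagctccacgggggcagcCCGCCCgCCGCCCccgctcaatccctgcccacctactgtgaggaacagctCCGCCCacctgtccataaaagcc
The window held 4 GC boxes, as 4.09% of the 32851 windows of this length in the table did at 4 copies or more, and no CCAAT box and no TATA box (TATAAA). Over the 30 members with an entry in the table, 20 held a GC box, 11 a CCAAT box and 3 a TATA box, each searched on both strands, against 32.7%, 33.8% and 12.4% of all windows. Such matches describe the letters alone and do not show that a factor binds there.

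Among the fibrillar chains, Col3a1, the single chain of type III collagen and a partner of type I in the gut wall, had the largest upward shift of the abundant members. It was at 125, 154, 117 and 125 CPM in Control-STAM-nonINS, from 138 to 196 CPM (median 173) in Control-STAM-INS and from 131 to 202 CPM (median 177) in ieIRKO-STAM-INS. In Control-STAM-INS 4 of 6 libraries were above every untreated library, while the groups overlapped through untreated replicate 2. The log2 fold change with insulin was 0.38 (SE 0.138, edgeR adjusted p = 0.0833), with a 95% interval from 0.11 to 0.65. Col1a1, one of the 2 chains of type I collagen, was at 106, 105, 84.7 and 59.8 CPM untreated and from 69.7 to 110 CPM (median 87.0) under insulin. The log2 fold change was -0.02 (95% interval -0.37 to 0.33), and that of Col1a2 was 0.09 (-0.11 to 0.29), so that a change of 1.5-fold in either direction lay outside both intervals. Of the 10 fibrillar members 0 passed the edgeR test, 2 did so at an unadjusted p under 0.05 (Col3a1 and Col27a1) and 1 with DESeq2 (Col3a1). The median log2 fold change of the class was 0.02, and -0.03 without Control-STAM-nonINS replicate 4.

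The 250 bases before the RefSeq start of Col3a1 (chr1:45311288-45311537, plus strand, GRCm38.p6) are shown for contrast with Col8a1, with the one TATA box match in capitals:
Col3a1: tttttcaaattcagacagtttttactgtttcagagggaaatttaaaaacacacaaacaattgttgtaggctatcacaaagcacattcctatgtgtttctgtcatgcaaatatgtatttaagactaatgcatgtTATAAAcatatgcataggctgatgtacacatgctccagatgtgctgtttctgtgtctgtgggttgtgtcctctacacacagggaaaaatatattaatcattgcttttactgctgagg
It held no GC box and no CCAAT box, and its TATAAA began 117 bases before the start.

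**Figure D3:**
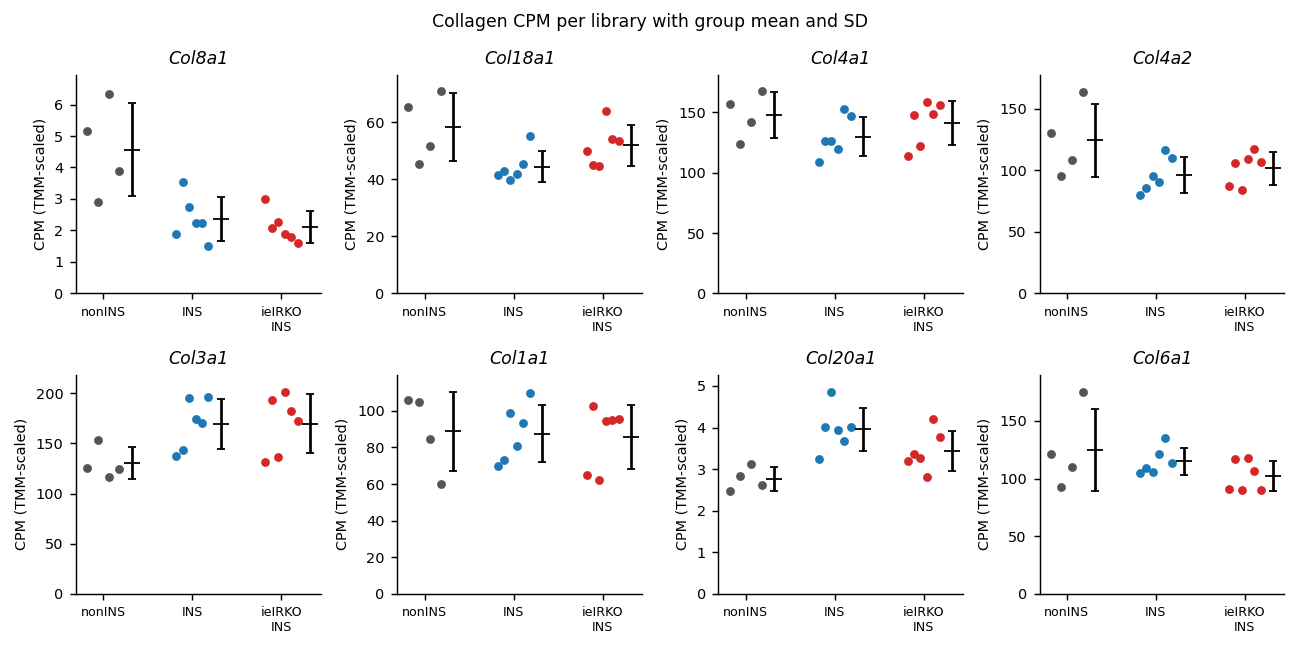
CPM of 8 collagen genes in each library (points) with the mean and SD of each group (black). Col8a1 is highest in 3 of the 4 Control-STAM-nonINS libraries, Col1a1 overlaps across the groups, and Control-STAM-nonINS replicate 4 has the highest value of Col4a2, 164 CPM, and of Col6a1, 175 CPM.

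None of the basement membrane chains was called with insulin. Col4a2 was at 130, 95.3, 108 and 164 CPM in Control-STAM-nonINS and from 79.5 to 117 CPM (median 92.9) in Control-STAM-INS, a log2 fold change of -0.37 (SE 0.143, edgeR adjusted p = 0.106). Its partner Col4a1, which joins it in the common type IV trimer, was at 157, 124, 142 and 168 CPM against 109 to 152 CPM (median 126), a log2 fold change of -0.19 (SE 0.119, edgeR adjusted p = 0.348). Both ranges overlapped, and the top untreated value was that of replicate 4. In that replicate the endothelial markers were also highest, and their part in these values was not tested. Without it the log2 fold change of Col4a2 was -0.21 and that of Col4a1 -0.12. The chains of the specialised type IV networks had values of 0.41 (Col4a6), 0.04 (Col4a5), -0.31 (Col4a3) and -0.01 (Col4a4) with SEs of 0.246 to 0.389. Of the 6 members 0 passed the edgeR or DESeq2 test, and Col4a2 alone had an unadjusted p under 0.05. The class median of -0.10 became 0.03 without replicate 4.

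Col4a1 and Col4a2 lie head to head on chromosome 8, and their RefSeq transcripts start within each other. The starts are at 11312826 for Col4a1 on the minus strand and 11312805 for Col4a2 on the plus strand, so that 22 bases belong to both first exons (chr8:11312805-11312826, GRCm38.p6, plus strand):
Col4a1 and Col4a2 shared bases: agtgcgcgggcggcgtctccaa
These 22 bases made up 0.295% of the Col4a1 and 0.332% of the Col4a2 exons. In all, 11 members shared some exon bases with another annotated gene, at most 6.07% (Col9a3 with Tcfl5), and 0 shared 10% or more. Whether strand was used in counting is not given in the sources used here.

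Among the other collagens, Col18a1, a basement membrane proteoglycan whose cleaved end is endostatin, was at 65.5, 45.5, 51.6 and 70.8 CPM untreated and from 39.8 to 55.2 CPM (median 42.5) under insulin. The log2 fold change was -0.39 (SE 0.128, edgeR adjusted p = 0.0571), and 5 of 6 treated libraries lay below every untreated one. Without Control-STAM-nonINS replicate 4 it was -0.29 (adjusted p = 0.200). Col15a1, its close relative, had a log2 fold change of 0.15 (SE 0.159). Col20a1, a fibril-associated chain, was at 2.48, 2.82, 3.13 and 2.62 CPM untreated and from 3.25 to 4.85 CPM (median 3.98) with insulin. It was the 1 member of 37 whose 2 groups did not overlap, against 10.6% of all genes tested, and its log2 fold change was 0.51 (SE 0.166, edgeR adjusted p = 0.0558). DESeq2 called it (adjusted p = 0.0441), as it did Col3a1 (0.0498) and Col8a1, so that the count of calls was 3 with DESeq2 and 1 with edgeR. The share of all genes called by DESeq2 is not given here for any comparison. The median log2 fold change of the 21 other collagens was -0.05, and 0.06 without Control-STAM-nonINS replicate 4.

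The type VI chains, which link cells to the fibrils around them, had 0 of 5 members called with insulin. Col6a1, the most abundant, was at 121, 92.6, 110.2 and 175 CPM untreated and from 105 to 135 CPM (median 111) in Control-STAM-INS, with a log2 fold change of -0.12 (SE 0.142). Those of Col6a2 and Col6a3 were -0.05 (SE 0.142) and 0.16 (SE 0.131), and that of Col6a4 was 0.10 (SE 0.187). Col6a5 was low, at 5.34 ± 2.87 CPM untreated (SD, n = 4) and 3.97 ± 1.78 CPM with insulin (SD, n = 6), and its log2 fold change of -0.44 had a wide 95% interval, from -1.10 to 0.21. The fibril-associated Col12a1 and Col14a1, which sit on type I fibrils, had log2 fold changes of -0.09 (SE 0.147) and 0.03 (SE 0.183). None of these 7 type VI and fibril-associated chains passed the edgeR test (adjusted p from 0.438 to 0.936). The transmembrane chain Col13a1 was at 4.49, 3.37, 6.10 and 16.5 CPM untreated and from 6.45 to 11.1 CPM (median 8.13) with insulin. The untreated value of 16.5 CPM was that of replicate 4, and the log2 fold change was 0.13 with it (SE 0.339, edgeR adjusted p = 0.857) and 0.85 without it (adjusted p = 0.0367). That library held the highest value of all 16 in 14 of the 37 members, and the lowest in Col1a1 and Col1a2.

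The libraries labelled ieIRKO-STAM-INS and the Control-STAM-INS libraries differed in 0 of the 37 collagen genes. DESeq2 likewise called 0, and 2 members had an unadjusted p under 0.05 by edgeR, against 11.3% of all genes. The background of calls was low here too, at 0.223% of 15267 genes. The groups overlapped in all 37 members, whereas 0.845% of all genes did not overlap. The median log2 fold change was -0.05 over the members and 0.02 over all genes. By class it was -0.02 for the fibrillar, -0.22 for the basement membrane and -0.05 for the other chains.

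The abundant chains were close between these groups, with intervals that bound the difference. Col3a1 had a log2 fold change of -0.001 (95% interval -0.24 to 0.24), Col1a1 of -0.03 (-0.34 to 0.29) and Col1a2 of -0.06 (-0.24 to 0.12). For Col4a1 it was 0.12 (-0.09 to 0.33) and for Col4a2 0.08 (-0.17 to 0.33). Those of Col6a1, Col6a2 and Col6a3 ran from -0.17 to -0.04. For 22 of the 37 members the whole interval lay within 1.5-fold in either direction, and for 32 within 2-fold. These counts rest on a normal quantile, which makes the intervals somewhat too narrow for so few libraries. The interval was wider for low chains such as Col9a3, a cartilage-type chain at 0 to 24 counts per library, where it ran from -1.61 to 0.73. A p above the threshold does not show that the groups were alike in these genes.

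The 2 members with an unadjusted p under 0.05 had lower means in ieIRKO than in control mice given insulin. Col24a1, a minor fibrillar chain, was at 1.14 CPM on average there and 1.87 CPM in Control-STAM-INS (log2 fold change -0.69, SE 0.301, edgeR adjusted p = 0.392). Col8a2 was at 4.13 against 5.46 CPM (log2 fold change -0.41, SE 0.182, edgeR adjusted p = 0.411). Col18a1 was higher, from 44.8 to 63.9 CPM (median 51.9) against a median of 42.5, at a log2 fold change of 0.22 (SE 0.116, edgeR adjusted p = 0.485). Col8a1 had a log2 fold change of -0.16 (95% interval -0.62 to 0.31). The count of calls stayed at 0 when the B cell-rich replicates 2 and 3 were left out, and when replicate 5 was.

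The libraries labelled ieIRKO-STAM-INS were also set against Control-STAM-nonINS, a comparison in which genotype and insulin both differ. It shares its untreated libraries with the first comparison, so the 2 are not independent. Col8a1 was again the 1 member called (log2 fold change -1.12, SE 0.254, edgeR adjusted p = 0.00747), with 13.3% of all genes called. This call was kept in each of the 10 fits that left out 1 library. Col8a2 had a log2 fold change of -0.61 (SE 0.201, edgeR adjusted p = 0.0512), Col27a1, a minor fibrillar chain, of -0.52 (SE 0.174, adjusted p = 0.0542) and Col3a1 of 0.38 (SE 0.138, adjusted p = 0.0730). DESeq2 called these 3 as well, 4 members in all. The basement membrane median was -0.32, and -0.11 without Control-STAM-nonINS replicate 4.

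The proportions between chains were examined as ratios of CPM per kb within each library, which do not depend on library scaling. The size of a ratio depends on the exon lengths used, whereas its comparison between groups does not. The 4 ratios were chosen after the values were seen, and 8 exact two-sided permutation tests were made. The Col3a1 to Col1a1 ratio, a measure of type III against type I collagen transcripts, was 0.791, 0.980, 0.922 and 1.40 in Control-STAM-nonINS. It lay between 1.19 and 1.44 in Control-STAM-INS, while ieIRKO-STAM-INS ran from 1.20 to 1.46. All 12 insulin-treated libraries thus lay above 3 of the 4 untreated ones, and the fourth, replicate 4, lay among them. The exact p for insulin was 0.0286 and 0.114 after Benjamini-Hochberg adjustment over the 8 tests. The difference of mean log2 ratios was 0.38, and 0.54 without replicate 4, a value given with no test because leaving that library out separates the groups by itself.

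**Figure D4:**
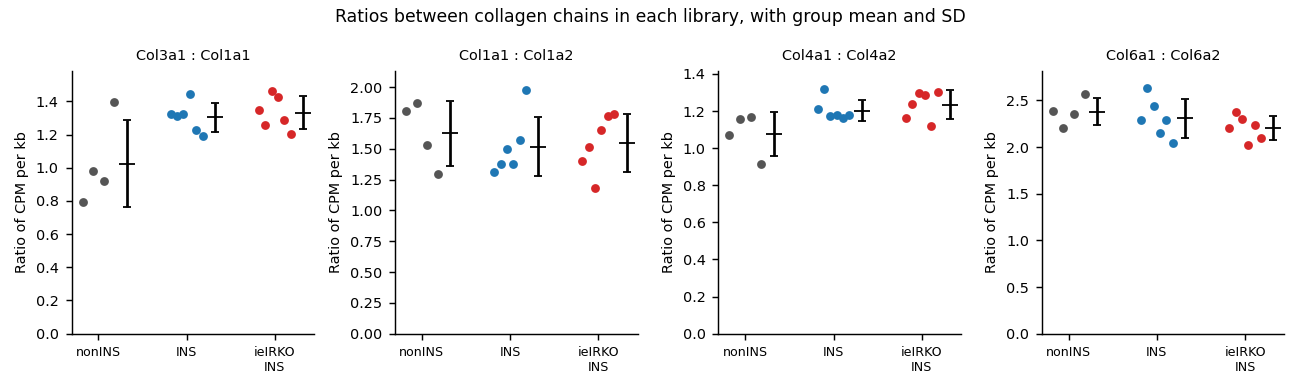
Ratio of CPM per kb between pairs of collagen chains in each library (points), with the mean and SD of each group (black). The Col3a1 to Col1a1 ratio is 0.791 to 0.980 in 3 of the 4 Control-STAM-nonINS libraries and 1.40 in replicate 4. It is 1.19 to 1.46 in the 12 insulin-treated libraries, so the groups overlap, as they do in the Col4a1 to Col4a2, Col1a1 to Col1a2 and Col6a1 to Col6a2 ratios.

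The Col4a1 to Col4a2 ratio was 1.07, 1.16, 1.17 and 0.912 untreated, from 1.16 to 1.32 in Control-STAM-INS and from 1.12 to 1.30 in ieIRKO-STAM-INS. For insulin the exact p was 0.00952, and 0.0762 after adjustment, with an unadjusted p of 0.0833 without replicate 4. Neither the Col1a1 to Col1a2 ratio (1.62 ± 0.266 against 1.52 ± 0.242, SD, n = 4 and 6, exact p = 0.495) nor the Col6a1 to Col6a2 ratio (2.38 ± 0.147 against 2.31 ± 0.207, exact p = 0.514) passed the test for insulin. In the second comparison the exact p of the 4 ratios ran from 0.353 to 0.831.

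Genes whose products fold, process, bind, sense or degrade collagen, or signal for its synthesis, were examined next. Of 116 such genes in 7 lists, 109 were tested, and 14 were lower and 1 was higher in Control-STAM-INS (13.8% against 10.5% of all genes). Their median log2 fold change was -0.22, and 1 was higher and 12 were lower without Control-STAM-nonINS replicate 4, at a median of -0.14. In the second comparison 0 of 109 were called by edgeR and 0 by DESeq2, with 10 at an unadjusted p under 0.05 by edgeR. Against untreated mice, ieIRKO-STAM-INS had 22 lower and 1 higher, 21.1% against 13.3% of all genes. For insulin, 6.76% of all genes were called lower in the full fit, and the counts of each list below in that fit stand against that share. No share of all genes is given here for fits without a library or with DESeq2, so counts from those fits have no such measure beside them.

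Collagen-degrading enzymes and their inhibitors had 3 of 16 tested genes lower with insulin (18.8%, against 6.76% of all genes). Mmp14, the membrane-bound protease that cuts fibrillar collagen at the cell surface, was at 52.2, 35.5, 44.4 and 57.6 CPM untreated and from 21.9 to 30.1 CPM (median 23.9) in Control-STAM-INS. The groups did not overlap, and its log2 fold change was -0.94 (SE 0.127, edgeR adjusted p = 2.77e-04). In ieIRKO-STAM-INS it was at 24.9 to 34.3 CPM (median 26.5). Mmp3, the matrix protease stromelysin, fell by 1.25 on the log2 scale at 1.40 CPM untreated (adjusted p = 0.0292), and the protease inhibitor Timp3 fell by 0.42 (adjusted p = 0.0420). Mmp14 was called in all 10 fits that left out 1 library, Mmp3 in 5 and Timp3 in 3. Without Control-STAM-nonINS replicate 4, Timp3 was at -0.28 (adjusted p = 0.172).

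Of 19 tested genes that fold and modify collagen chains, 1 was lower with insulin, and so was 1 of 16 processing and crosslinking genes, both shares below the 6.76% of all genes called lower. P3h4, a partner of the lysyl hydroxylases in the endoplasmic reticulum, averaged 4.45 CPM against 8.66 CPM untreated (log2 fold change -0.96, SE 0.205, edgeR adjusted p = 0.00615), and was called without each library in turn. The processing gene was the peroxidasin gene Pxdn, whose enzyme crosslinks type IV collagen (-0.38, adjusted p = 0.0369). Its call was kept in 2 of 10 fits that left out 1 library, and was lost without Control-STAM-nonINS replicate 4 (-0.32, adjusted p = 0.121). Lox, the main lysyl oxidase of fibrils, was at -0.75 with insulin (adjusted p = 0.0563) and at -0.81 in ieIRKO against untreated mice (adjusted p = 0.0339). The latter call was lost without Control-STAM-nonINS replicate 1 or 3, and without ieIRKO-STAM-INS replicate 5 (-0.78, adjusted p = 0.0600).

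Partners of type IV collagen in basement membranes had 2 of 15 genes lower with insulin (13.3%, against 6.76% of all genes). The laminin chain Lama5, the alpha chain of mature epithelial basement membrane, fell by 0.70 (adjusted p = 0.0128), and Lamb2 fell by 0.46 (adjusted p = 0.00841). The Lama5 value was -0.48 without Control-STAM-nonINS replicate 4 (adjusted p = 0.0537). The same list had 0 of 15 called in the second comparison. Of 8 endothelial markers, whose cells make much of the vascular type IV collagen, Tie1 and Cdh5 were lower with insulin (-0.49 and -0.70), and 0 of 8 were called without replicate 4. Both calls were also lost without replicate 1. All 8 markers had lower values with insulin, at a median log2 fold change of -0.43, and -0.10 without replicate 4. Their part in the values of the lists was not tested.

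Of 17 collagen-binding matrix proteins, Thbs1, a matrix glycoprotein that activates TGF-beta, and the fibulin Fbln2 were lower (-0.63 and -0.67, adjusted p = 0.00998 and 0.00450), 11.8% against 6.76% of all genes. In the fit without Control-STAM-nonINS replicate 4, whose share of all genes is not given here, 4 of the 17 were called lower. Fbln2 did not overlap between the groups and kept its call without each library in turn, whereas the Thbs1 call was lost without Control-STAM-nonINS replicate 1. Of 10 tested collagen receptors, 2 were called (against 10.5% of all genes in either direction): the adhesion receptor Adgrg1, which binds type III collagen, was lower (-0.55) and Adgrg6, which binds type IV, was higher (0.49), with adjusted p of 0.0138 and 0.0291. Neither was called without Control-STAM-nonINS replicate 4 (-0.35 and 0.49, adjusted p = 0.0626 and 0.0635), and Adgrg6 was called in 3 of 10 fits that left out 1 library, Adgrg1 in 9. The integrins and discoidin receptors of the list did not pass the test.

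Fibrogenic signals had 4 of 16 tested genes lower with insulin (against 6.76% of all genes), namely Tgfb3 (-0.69), Tgfbr2 (-0.46), Ccn2 (-0.91) and Pdgfa (-0.38), with adjusted p from 0.0204 to 0.0428. These are a TGF-beta ligand, a TGF-beta receptor, connective tissue growth factor and a platelet-derived growth factor chain. Ccn2 averaged 8.57 CPM against 16.03 CPM and did not overlap between the groups, yet its call was kept in 2 of 10 fits that left out 1 library. Those of Tgfb3, Tgfbr2 and Pdgfa were kept in 9, 4 and 3 of the 10. Without Control-STAM-nonINS replicate 4, Ccn2 at -0.80 (adjusted p = 0.100) and Tgfbr2 at -0.36 (adjusted p = 0.127) were no longer called. In that fit 3 of the 16 were lower and 1 was higher, and its share of all genes is not given here. Set against untreated mice, ieIRKO-STAM-INS had 2 of the 16 lower and 1 higher, 18.8% against 13.3% of all genes. Ltbp2 was higher there in all 10 fits that left out 1 library (log2 fold change 0.82 to 1.08). The 8 fibroblast markers, the main collagen-making cells of the wall, summed to 253 to 358 CPM without insulin, and under insulin to 270.1 to 312 CPM in control and 216 to 287 CPM in ieIRKO mice, and 0 of 8 were called in the first or the second comparison. Without Control-STAM-nonINS replicate 4, 1 of 8 was lower with insulin (Dcn, which encodes the fibril-binding proteoglycan decorin, at -0.44), a call made in that 1 of the 10 fits that left out 1 library. Against untreated mice, ieIRKO-STAM-INS also had 1 of 8 lower, again Dcn (-0.48, adjusted p = 0.0259), with 4 at an unadjusted p under 0.05 and a list median of -0.34. That call was lost without Control-STAM-nonINS replicate 1, 2 or 3.

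**Figure D5:**
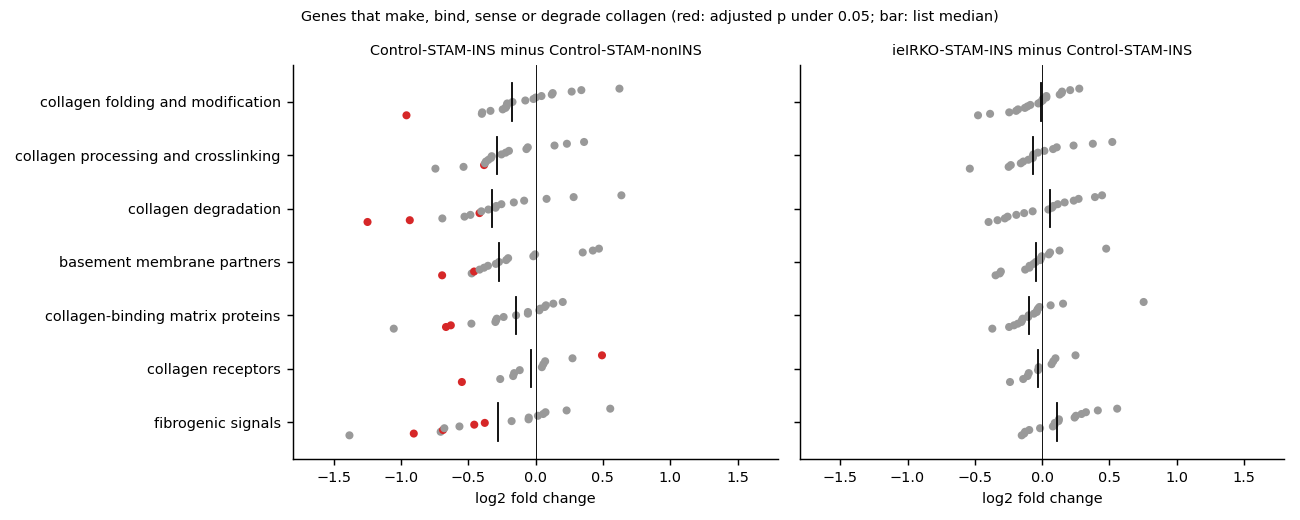
Log2 fold change of the genes in 7 lists that make, bind, sense or degrade collagen, for insulin (left) and for ieIRKO against control mice under insulin (right), each point 1 gene, with genes past an adjusted p of 0.05 in red and the median of each list as a bar. On the left 15 genes are red and 14 of them are below 0, and on the right none is.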

How the data were processed

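Total RNA from ileal whole wall was sequenced from a directional library. The deposited files hold raw counts per gene, which the authors made with CLC Genomics Workbench 21.0.3 against GRCm38 (mm10); strand use, treatment of multi-mapping reads and annotation release are not given in the sources used here. No column of per-sample values was left out.

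Counts were analysed with edgeR 4.0.16 (R 4.3.3) on all genes: filterByExpr, TMM scaling, robust quasi-likelihood fit over the 3 groups together and Benjamini-Hochberg adjustment over the 15267 genes tested, with a threshold of 0.05. Standard errors are the log2 fold change divided by the root of F, and intervals are at 95% with a normal quantile. Such intervals are narrower than the test implies. That of Col11a2 for insulin, -0.98 to -0.02, held only negative values though its unadjusted edgeR p was 0.0561. Ratios between chains were tested with exact two-sided permutation of their log2 values. The fit was tested on simulated data. SDs and SEs are between libraries. Exon lengths and positions are from GENCODE M21 and promoter windows from RefSeq (GRCm38.p6).

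The members, the collagen classes and the lists were chosen with earlier results of these data known. Genes were named by rule: the main chains, every member called, the highest of each class per kb, those nearest the count threshold and Insr, plus up to 5 called genes of each other list. Col13a1, Col20a1, Col24a1, Col27a1, Col8a2 and the minor chains given by their levels were named after their values were seen. Alternatives were DESeq2 1.42.0, upper-quartile scaling, no filter, a floor of 10 counts in all libraries, fits of 2 groups alone, a replicate block, TMM without collagens and alpha-defensins, and leaving out libraries; the chain ratios were added after the data were seen. With 10 counts required in all 16 libraries 30 genes are members, and with 1 count in 4 libraries 42.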

Additional observations from a re-analysis of the deposited data

Results flagged for a closer look

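Each member and the summed CPM of each class was searched in each group for a library far from the others, by the gap to its nearest neighbour over the range of the group (Dixon's test), 120 tests in all. Chance flags about 1 in 20, or 6.0, and 5 were found. In Control-STAM-nonINS, replicate 4 had Col6a4 at 80.7 CPM against 43.8 to 45.6 in the others, a gap of 0.952 of the range. In Control-STAM-INS, replicate 6 had Col18a1 at 55.2 CPM against 39.8 to 45.3, a gap of 0.645. In the libraries labelled ieIRKO-STAM-INS, replicate 1 had Col4a3 at 2.04 CPM against 0.809 to 1.17 (0.706), replicate 4 had Col11a1 at 1.30 CPM against 0.353 to 0.607 (0.732) and replicate 2 had Col22a1 at 1.08 CPM against 0.246 to 0.529 (0.661).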

How the results depend on the processing

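The count of collagen genes called for insulin, 1 in the fit reported, was 3 with DESeq2 (Col8a1, Col3a1 and Col20a1), 2 with 10 counts in every library (Col8a1 and Col20a1) and 2 with only the 2 groups compared (Col8a1 and Col3a1). Over the fits that left out 1 library it ran from 0 to 4, with 0 when untreated replicate 1 or 3 was left out, 4 without untreated replicate 2, and 2 without untreated replicate 4 or Control-STAM-INS replicate 1 or 6. For ieIRKO-STAM-INS against Control-STAM-nonINS it was 4 with DESeq2 and ran from 1 to 3 over the fits without 1 library. Between the insulin-treated genotypes it was 0 in all 8 alternatives and all 12 fits without 1 library. The 9 class medians moved by less than the SD of class means of single libraries (0.16 to 0.22 on the log2 scale) in each alternative run. That is a lenient measure for a difference between groups. Leaving out Control-STAM-nonINS replicate 4 changed the sign of each class median for insulin. It also shrank the basement membrane median for ieIRKO-STAM-INS against Control-STAM-nonINS.

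The labels number replicates alike in each group, and same-numbered libraries deviated together weakly (correlations from -0.0943 to 0.179 over 14 pairs, median 0.0245). Pairs with different numbers ran from -0.305 to 0.23 (70 pairs, median 0.00278). Weak correlations cannot show whether the numbers pair the samples, and the main fit did not pair them. With the replicate number as a block, 2 collagen genes were called for insulin, Col18a1 and Col4a2 (log2 fold changes -0.44 and -0.46), and Col8a1 was at -0.81 (adjusted p = 0.0651); 0 and 1 were called in the other 2 comparisons, as without the block. Of the 16 fibrogenic signals, 1 was lower for insulin with the block, against 4 without it, and 6 of 17 were lower with DESeq2. The share of all genes called is given here for the main fit only, so the counts of the other fits cannot be set against theirs.

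With 4 untreated libraries, 1 of which stands apart, low chains such as Col8a1 (27 to 113 counts) are measured less precisely than Col1a1 or Col4a1. The calls of Col20a1, Col18a1 and Col3a1 for insulin depended on the fit, and the cause was not tested. The 7 collagens outside the rule were too low to compare.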
